A study of Rattus norvegicus with 105 samples.

Results

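The subunits of the GABA-A receptor described here were Gabra2, Gabra3, Gabra4, Gabra5, Gabrb1, Gabrb2 and Gabrg1. They were chosen as every probe set whose only gene symbol in the platform's annotation was one of these 7 names, which gave 8 probe sets out of 31042 without controls, for 7 of 14217 named genes. Gabrb2 had 2 probe sets (1377773_at, which had the higher mean and represented the gene, and 1369818_at), and the other members had 1 each: 1397614_at for Gabra2, 1369844_at for Gabra3, 1369905_at for Gabra4, 1371057_at for Gabra5, 1369904_at for Gabrb1 and 1387706_at for Gabrg1. All 8 passed the filter on low values in every fit, where the lowest of them stood at percentile 65 of mean intensity or above.

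GABA-A receptors are chloride channels of 5 subunits that open when GABA, the main inhibitory transmitter of the cortex, binds between an alpha and a beta subunit. The alpha subunit decides much of where a receptor sits and which drugs it answers to, the beta subunit is needed for assembly and surface delivery, and a gamma subunit completes most synaptic receptors and forms the benzodiazepine site together with an alpha subunit. In the forebrain, alpha 2 is enriched at the axon initial segment of pyramidal cells, alpha 4 and alpha 5 largely serve tonic inhibition outside synapses, and alpha 3 lies at synapses of part of the cortical neurons.

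RNA came from the frontal cortex of rats and each Affymetrix array gave 1 intensity per probe set. In the first experiment 12 arrays came from rats with a ventral hippocampal lesion and 10 from sham controls of that operation, and in the second 11 came from rats whose ventral hippocampus received tetrodotoxin (TTX), a blocker of voltage-gated sodium channels, and 9 from its own shams. The third, which the series title describes as chronic administration, compared 9 arrays of vehicle with clozapine at a low (10 arrays), medium (9) and high (8) dose level and with haloperidol at a low, medium and high dose level (9 each). These drugs are an atypical and a typical antipsychotic; the labels give dose levels as words without amounts, and no source used here gives strain, age, route or the days of treatment. In every group the tissue was frontal cortex, and no label names a transgene or a mutated allele. No label states that each array was a separate animal. The p-values therefore reflect only how far these samples spread, which may in part be technical. Values are log2 of normalised intensity, so a difference of 1 is a doubling of signal, and the number of arrays limits their precision. A probe set was called when limma gave a Benjamini-Hochberg adjusted p under 0.05 over the 18625 probe sets tested.

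Of 10 markers of cortical excitatory neurons 9 were on the array and all 9 passed the filter, with Slc17a7 at percentile 98.2 and Nrgn at percentile 99.8 of mean intensity. Of 7 hippocampal and dentate markers 5 were on the array, with Tdo2 at percentile 8.3, Dsp at 30.8, Prox1 at 55.1, Wfs1 at 79.8 and Zbtb20 at 80.3, so the list spans low and high signal. The mean correlation of an array with the others of its experiment was low for 4 arrays: lesion replicate 7, lesion sham replicate 9, and replicate 8 of both medium and high haloperidol. Replicate numbers are not in the labels and count the arrays of a group in the order of the sample numbers in their titles. No 2 arrays were identical (0 pairs). The titles give running sample numbers and mark no blocks, so all blocks here are cuts made for this report. In the lesion and TTX experiments the ordered numbers were cut at the middle into 2 blocks. Those of the neuroleptic experiment were cut into 4 blocks (2 to 17, 18 to 33, 34 to 49 and 50 to 64). These 4 held the drugs unequally, with 12 clozapine and 2 haloperidol arrays in the third block and 3 and 9 in the fourth. Values within blocks are therefore given for the differences of Gabra5, Gabrb1 and Gabra2 and for the called differences of other named genes.

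The genes lie in clusters, and the order of the RefSeq genes in GRCr8 shows which members are neighbours. Gabrb1, Gabra4, Gabra2 and Gabrg1 followed each other on chromosome 14, with 0 protein-coding genes between Gabrb1 and Gabra4, 1 between Gabra4 and Gabra2 and 0 between Gabra2 and Gabrg1. Gabra5 lay beside Gabrg3 on chromosome 1, Gabrb2 beside Gabra6 on chromosome 10, and Gabra3 near Gabrq on chromosome X. The RefSeq table held promoters for 6 of the 7 members, all but Gabra2. The 250 bases before the start site are shown for Gabrb1, the member that was called, for the other beta subunit Gabrb2, and for Gabra5, whose differences after lesion and TTX had opposite signs. All are written 5′ to 3′ on the gene's strand, in GRCr8: Gabrb1 is chr14:36902894-36903143 (- strand), Gabrb2 chr10:27439543-27439792 (+ strand) and Gabra5 chr1:117516607-117516856 (- strand). Capitals mark the NRF1 core (GCGCATGC) in the beta subunits and the Sp1 GC box (GGGCGG, here on the opposite strand) in Gabra5.
Gabrb1: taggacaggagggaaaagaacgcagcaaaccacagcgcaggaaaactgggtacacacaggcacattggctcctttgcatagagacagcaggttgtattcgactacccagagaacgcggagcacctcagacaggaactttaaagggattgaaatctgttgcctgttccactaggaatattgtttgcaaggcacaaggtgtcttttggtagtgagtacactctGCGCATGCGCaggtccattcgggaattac
Gabrb2: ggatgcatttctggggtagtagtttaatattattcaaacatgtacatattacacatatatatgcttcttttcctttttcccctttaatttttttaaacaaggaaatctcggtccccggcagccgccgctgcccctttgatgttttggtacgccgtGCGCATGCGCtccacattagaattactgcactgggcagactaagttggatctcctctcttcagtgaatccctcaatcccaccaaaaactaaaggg
Gabra5: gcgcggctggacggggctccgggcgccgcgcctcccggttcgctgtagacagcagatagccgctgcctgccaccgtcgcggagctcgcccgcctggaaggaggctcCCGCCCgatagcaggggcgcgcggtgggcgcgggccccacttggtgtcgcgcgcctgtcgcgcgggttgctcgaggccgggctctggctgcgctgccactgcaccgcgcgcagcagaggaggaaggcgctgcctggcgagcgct
Both beta subunit promoters held 2 matches to the NRF1 core, which overlap on opposite strands of a palindrome, between 29 and 20 bases before the start in Gabrb1 and between 95 and 86 bases before it in Gabrb2. The core, which was added to the motifs after these sequences had been seen, occurred on either strand in 2.2% of 33469 promoter windows of this length. The other 4 members with a promoter had 0 matches. The Sp1 GC box, found in Gabra5 and Gabra4, occurred in 30.5% of the windows on either strand. Gabra5 had 37 CpG dinucleotides, more than 98.1% of the windows, and Gabra4 had 33 (96.4%). The median over all windows was 5, with 8 in Gabrb1 and in Gabrb2, 6 in Gabrg1 and 0 in Gabra3. Searched on both strands, the cAMP response element (TGACGTCA, in 1.59% of windows), its shorter form TGACG (18.2%) and the Egr site (GCGTGGGCG or GCGGGGGCG, 2.85%) had 0 matches in the 6 promoters. The CCAAT box (CCAAT, 34.0%) was in Gabra3, Gabrb1 and Gabrg1 and the TATA box (TATAAA, 12.9%) in Gabra3.

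The lesion comparison asked whether damage to the ventral hippocampus, which projects to frontal cortex, goes with other levels of the subunits' transcripts. Limma called 0 of 8 member probe sets, where it called 0% of all probe sets, and 1 member, Gabra5, had an unadjusted p under 0.05, where 7.79% of all did. Gabra5 ran from 12.39 over a median of 12.78 to 13.08 in the 10 sham arrays, and from 12.10 over 12.54 to 13.05 in the 12 lesion arrays. Most lesion arrays lay low, 10 of 12 below the sham mean, and the groups overlapped over most of their range. The means were 12.54 ± 0.26 (SD, n = 12) and 12.77 ± 0.24 (SD, n = 10), a log2 difference of -0.22 ± 0.10 (SE; limma, adjusted p = 0.624). In the first block of sample numbers the difference was -0.44 (6 against 5 arrays) and in the second -0.0056 (6 against 5). In tissue RNA, fewer cells of a type and less RNA per cell cannot be told apart.

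The other alpha subunits were each within their error after the lesion. Gabra2 differed by 0.030 ± 0.12, Gabra3 by 0.078 ± 0.12 and Gabra4 by 0.051 ± 0.078 (SE). The lowest Gabra2 value of the experiment, 11.74, belonged to lesion replicate 7, one of the arrays of low mean correlation; the other lesion arrays began at 12.36. The beta and gamma subunits gave 0.030 ± 0.098 for Gabrb1, -0.054 ± 0.045 and -0.044 ± 0.12 for the probe sets of Gabrb2 and -0.091 ± 0.13 for Gabrg1. The spread of Gabrb1 was wider after the lesion (12.29 to 13.45, SD 0.30) than in sham (12.64 to 13.03, SD 0.12), a difference that was not tested. Over the 8 probe sets the median difference was -0.0074, with 4 higher and 4 lower, beside a median of -0.001 and 49.5% higher over all probe sets tested.

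The TTX comparison asked the same for rats whose ventral hippocampus received TTX. Again 0 of 8 members were called by limma, where 0% of all probe sets were, and Gabra5 alone had an unadjusted p under 0.05, a level that 4.66% of all reached. Here Gabra5 was on the higher side. It ran from 12.45 over 12.62 to 12.73 in the 9 sham arrays, a narrow band, and from 12.37 over 12.87 to 13.23 in the 11 TTX arrays. Of the TTX arrays 9 of 11 lay above the sham mean, and the lowest of them lay below every sham array. The means were 12.79 ± 0.24 (SD, n = 11) and 12.60 ± 0.086 (SD, n = 9), a log2 difference of 0.19 ± 0.084 (SE; limma, adjusted p = 0.999). It was 0.42 in the first block (5 against 5 arrays) and -0.013 in the second (6 against 4).

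Gabrb1 had a difference of like size with TTX, 0.20 ± 0.10 (SE; limma, adjusted p = 0.999), with 9 of 11 arrays above the sham mean. Its values ran from 12.44 over 12.85 to 13.06 in sham and from 12.46 over 12.97 to 13.42 with TTX, and the groups overlapped. Within the blocks it was 0.22 and 0.18. The remaining probe sets lay between -0.073 ± 0.095 (Gabrb2, 1369818_at) and 0.0066 ± 0.082 (Gabra2). Gabra3 was at -0.0042 ± 0.12, Gabra4 at -0.018 ± 0.094, the other Gabrb2 probe set at -0.016 ± 0.046 and Gabrg1 at -0.063 ± 0.090. Over the 8 the median was -0.010 with 3 higher and 5 lower, beside a median of -0.0006 and 49.7% higher over all probe sets.

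**Figure D1:**
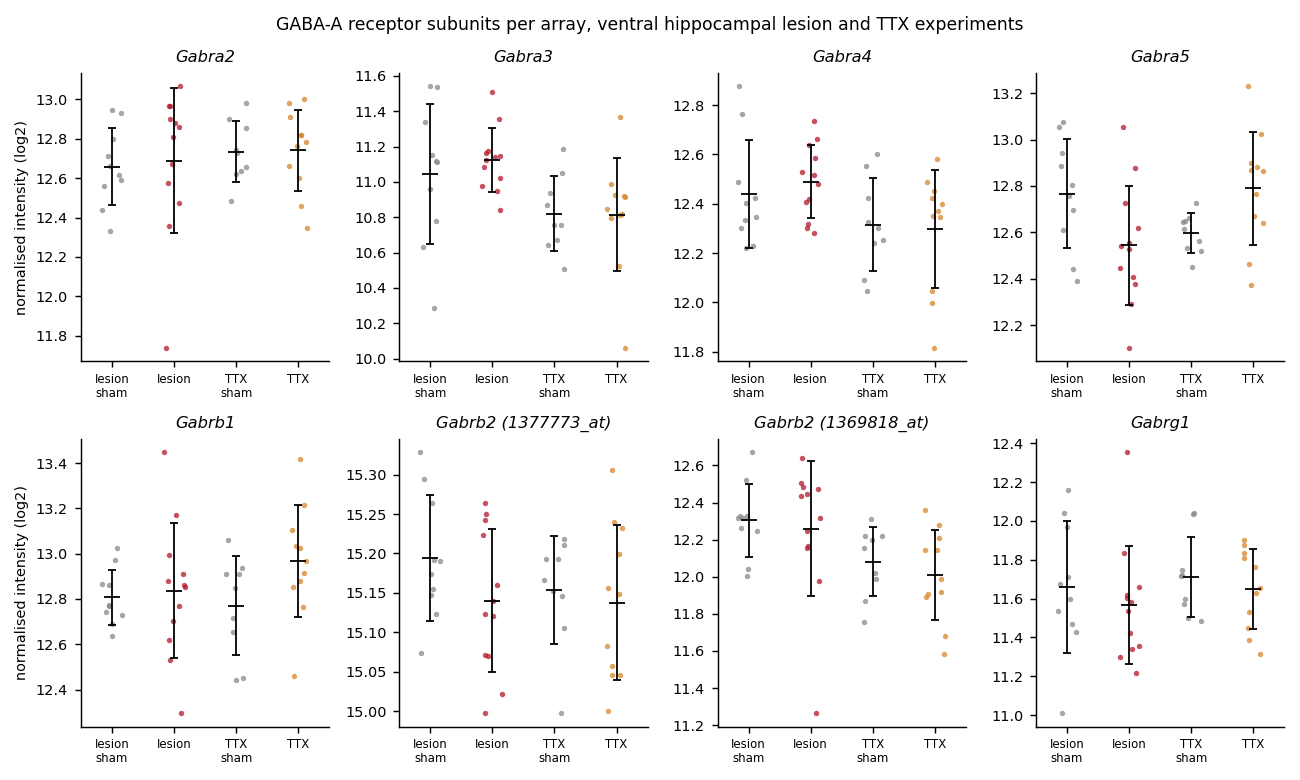
Normalised intensity (log2, vertical axes with a scale of their own in each panel) of the 8 member probe sets in the lesion and TTX experiments; each point is an array and bars give the mean ± SD. Gabra5 lies low in most lesion arrays (mean 12.54 against 12.77 in sham) and high in most TTX arrays (12.79 against 12.60), with overlap in both.

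Because Gabra5 lay on opposite sides of its controls, the difference between the effects was read from the joint fit of the 42 arrays. The lesion effect minus the TTX effect was -0.41 ± 0.14 (SE), with a 95% confidence interval from -0.69 to -0.14; it did not pass (limma, adjusted p = 0.708; unadjusted p = 0.00393). It ran from -0.46 to -0.37 when single arrays were left out. Among all probe sets 0% were called and 6.35% had an unadjusted p under 0.05; among the members these were 0 of 8 and 1 of 8. Gabrb1 gave -0.17 ± 0.14 and the others lay between -0.038 ± 0.060 (Gabrb2, 1377773_at) and 0.082 ± 0.17 (Gabra3). Myelin markers were lower in 9 of 9 genes in both experiments (median -0.14 after the lesion and -0.15 with TTX), and interneuron markers were higher in 8 of 10 after the lesion (median 0.12) and 6 of 10 with TTX (0.029). Markers of cortical excitatory neurons were lower in 7 of 9 genes after the lesion (median -0.044) and higher in 7 of 9 with TTX (0.025), opposite signs as for Gabra5. Striatal markers were higher in 4 of 7 after the lesion (median 0.12) and in 7 of 8 with TTX (0.18), where Gnal was at 0.52 ± 0.098. Of 3 hippocampal and dentate markers tested, 2 were lower after the lesion (median -0.027) and 2 higher with TTX (0.16), with Prox1 at -0.16 ± 0.083 and 0.17 ± 0.089. In each of these lists 0 markers were called in both experiments, and their part in the Gabra5 values was not tested. Summed over the striatal markers, log2 levels ran from 14.44 to 14.68 in lesion sham, 14.36 to 14.88 in lesion, 14.52 to 14.84 in TTX sham and 14.60 to 14.84 in TTX, and over the hippocampal and dentate markers from 12.82 to 13.13, 12.58 to 13.34, 12.70 to 13.33 and 12.96 to 13.40. Summed over the excitatory markers, log2 levels ran from 16.78 to 17.06 in lesion sham, 16.77 to 17.01 in lesion, 16.90 to 17.11 in TTX sham and 16.95 to 17.17 in TTX, and over the myelin markers from 17.39 to 17.78, 17.03 to 17.87, 17.50 to 17.89 and 17.23 to 17.87. Summed over the interneuron markers, log2 levels ran from 16.95 to 17.20 in lesion sham, 16.98 to 17.46 in lesion, 17.06 to 17.19 in TTX sham and 17.03 to 17.21 in TTX.

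The comparison of both drugs asked whether clozapine and haloperidol, each over its 3 dose levels, left the subunits at different levels. Gabrb1, a beta subunit, was higher with clozapine: limma called 1 of 8 member probe sets, where it called 1.21% of all probe sets. With clozapine Gabrb1 ran from 12.63 over 12.84 to 13.23 at the low, from 12.72 over 13.14 to 13.49 at the medium and from 12.77 over 13.18 to 13.42 at the high dose level. With haloperidol it ran from 12.50 over 12.85 to 13.24 at the low, from 12.57 over 12.78 to 13.08 at the medium and from 12.29 over 12.83 to 13.03 at the high dose level. Most arrays at medium and high clozapine lay above most haloperidol arrays, while low clozapine lay among them, and all groups overlapped. The means of the dose levels averaged 13.06 and 12.82, a log2 difference of 0.24 ± 0.063 (SE, 27 against 27 arrays; limma, adjusted p = 0.0397). That is a 1.18-fold higher signal, with a 95% confidence interval from 1.08 to 1.29, and 19 of 27 clozapine arrays lay above the haloperidol mean.

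The call depended on the arrays and on the blocks of sample numbers. Clozapine minus haloperidol was 0.11 (6 against 8 arrays), 0.0081 (6 against 8), 0.35 (12 against 2) and 0.22 (3 against 9) within the 4 blocks, positive in each. With the block as a term it was 0.14 ± 0.063 (limma, adjusted p = 0.537), so drug and block can be only partly told apart. The blocks held 31.1% of the variance of Gabrb1 in this experiment and the 7 groups 27.0%. Leaving out single arrays gave differences from 0.22 to 0.26 and adjusted p from 0.00936 to 0.0682, and the call was lost in 25 of 63 cases. The arrays in question were clozapine low 2, 6, 7 and 8, clozapine medium 2, 5, 6, 7 and 8, clozapine high 1, 3, 5, 6, 7 and 8, haloperidol low 1, 4, 6, 8 and 9, haloperidol medium 4, 8 and 9, and haloperidol high 5 and 7. The largest adjusted p, 0.0682 at a difference of 0.22, came without haloperidol high replicate 7. Without the 2 arrays of low mean correlation in this experiment the difference was 0.23 (limma, adjusted p = 0.0672).

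Against vehicle, which both drugs share as control, Gabrb1 was not called with either drug. Vehicle arrays ran from 12.56 over 13.03 to 13.50, with a wider spread than any drug group. Clozapine minus vehicle was 0.077 ± 0.090 (SE; limma, adjusted p = 0.977) and haloperidol minus vehicle -0.17 ± 0.089 (limma, adjusted p = 0.783), with 20 of 27 haloperidol arrays below the vehicle mean. Within the 4 blocks, each with 2 or 3 vehicle arrays, clozapine minus vehicle was -0.19, 0.058, -0.0006 and 0.091 and haloperidol minus vehicle -0.30, 0.050, -0.35 and -0.12, so neither kept its sign. In order of their means the groups were high clozapine (13.14), medium clozapine (13.14), vehicle (12.99), low clozapine (12.92), low haloperidol (12.88), medium haloperidol (12.83) and high haloperidol (12.76). No neighbours in that order differed by more than their SDs, which ran from 0.20 to 0.30. High minus low clozapine was 0.23 ± 0.11 (limma, adjusted p = 0.9999) and high minus low haloperidol -0.12 ± 0.11 (adjusted p = 0.883).

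Gabra2 was the other member with an unadjusted p under 0.05 between the drugs, 2 of 8 against 15.2% of all probe sets, and it lay the other way. In vehicle it ran from 12.12 over 12.52 to 12.74. With haloperidol it ran from 12.31 over 12.78 to 13.22 at the low, from 12.52 over 12.71 to 13.11 at the medium and from 12.56 over 12.85 to 13.31 at the high dose level. With clozapine it ran from 12.04 over 12.46 to 13.06, from 12.35 over 12.58 to 13.07 and from 12.00 over 12.53 to 13.33. Haloperidol arrays lay high at each dose level, and clozapine arrays spread on both sides of the vehicle arrays. Clozapine minus haloperidol was -0.21 ± 0.070 (SE; limma, adjusted p = 0.113), with 21 of 27 clozapine arrays below the haloperidol mean.

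Haloperidol minus vehicle was 0.26 ± 0.098 for Gabra2 (SE; limma, adjusted p = 0.651), with 25 of 27 arrays above the vehicle mean. It was 0.25 ± 0.12 at the low, 0.21 ± 0.12 at the medium and 0.31 ± 0.12 at the high dose level, where 9 of 9 arrays lay above the vehicle mean; none was called. Clozapine minus vehicle was 0.050 ± 0.098. Within blocks haloperidol minus vehicle was -0.0009, 0.24, 0.43 and 0.33, and clozapine minus haloperidol 0.082, -0.30, -0.18 and -0.45, so the first block stood apart from the other three in both. With array weights Gabra2 was called lower with clozapine than with haloperidol (-0.23, limma adjusted p = 0.0316), and so it was without high clozapine replicate 2 (-0.25, adjusted p = 0.0184), whose 13.33 was the highest Gabra2 value of the experiment. With the block as a term the difference was -0.17 ± 0.078 (adjusted p = 0.550).

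**Figure D2:**
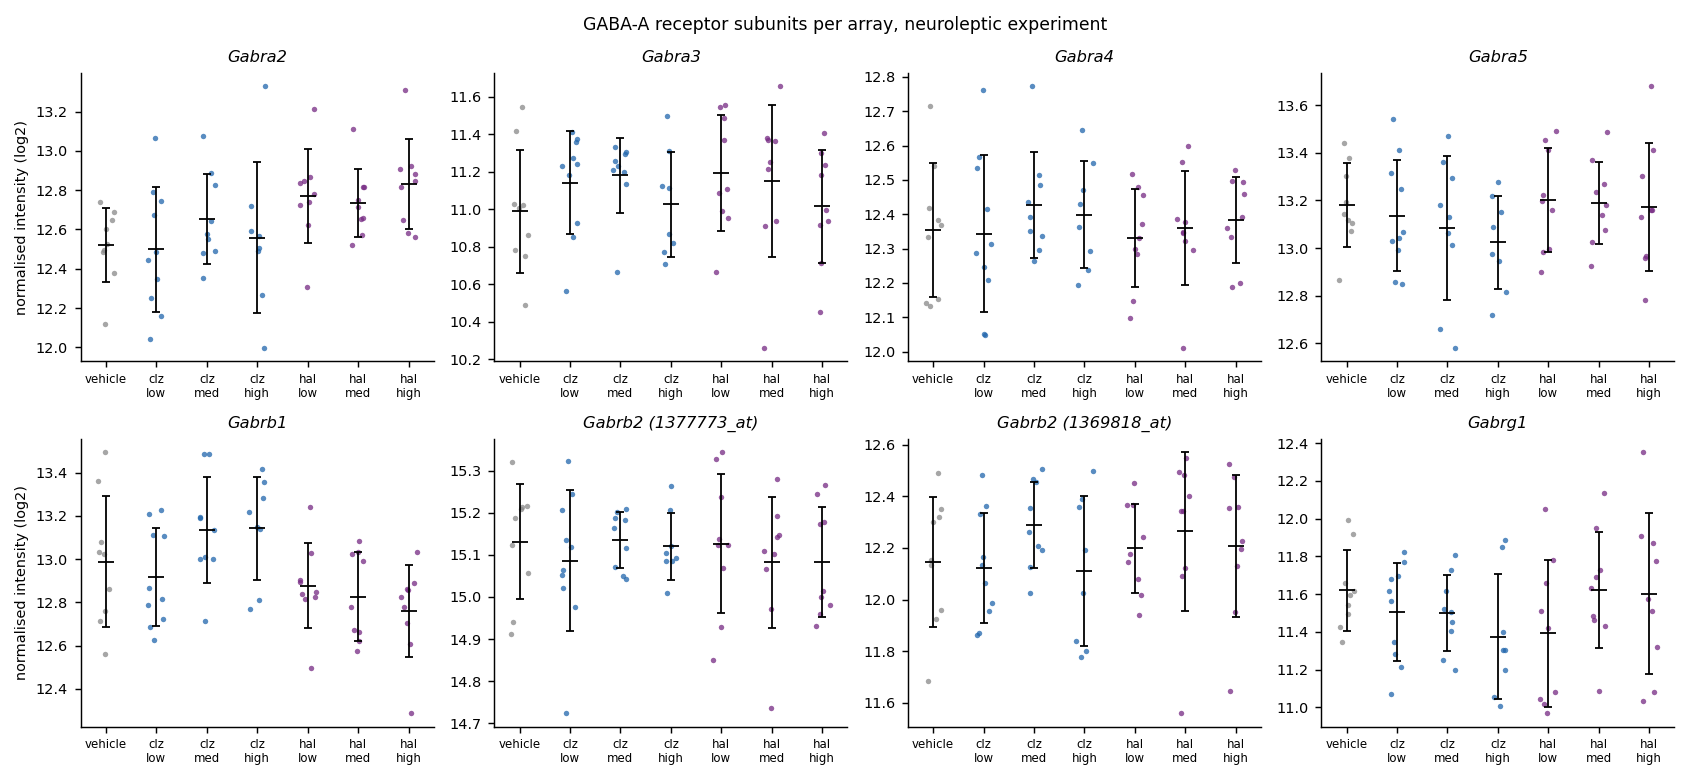
Normalised intensity (log2, vertical axes with a scale of their own in each panel) of the 8 member probe sets in the 7 neuroleptic groups (clz, clozapine; hal, haloperidol; low, medium and high dose level); points are arrays and bars the mean ± SD. Gabrb1 means fall from 13.14 at medium and high clozapine to 12.76 at high haloperidol, and Gabra2 means are highest in the 3 haloperidol groups (12.73 to 12.83 against 12.52 in vehicle).

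**Figure D3:**
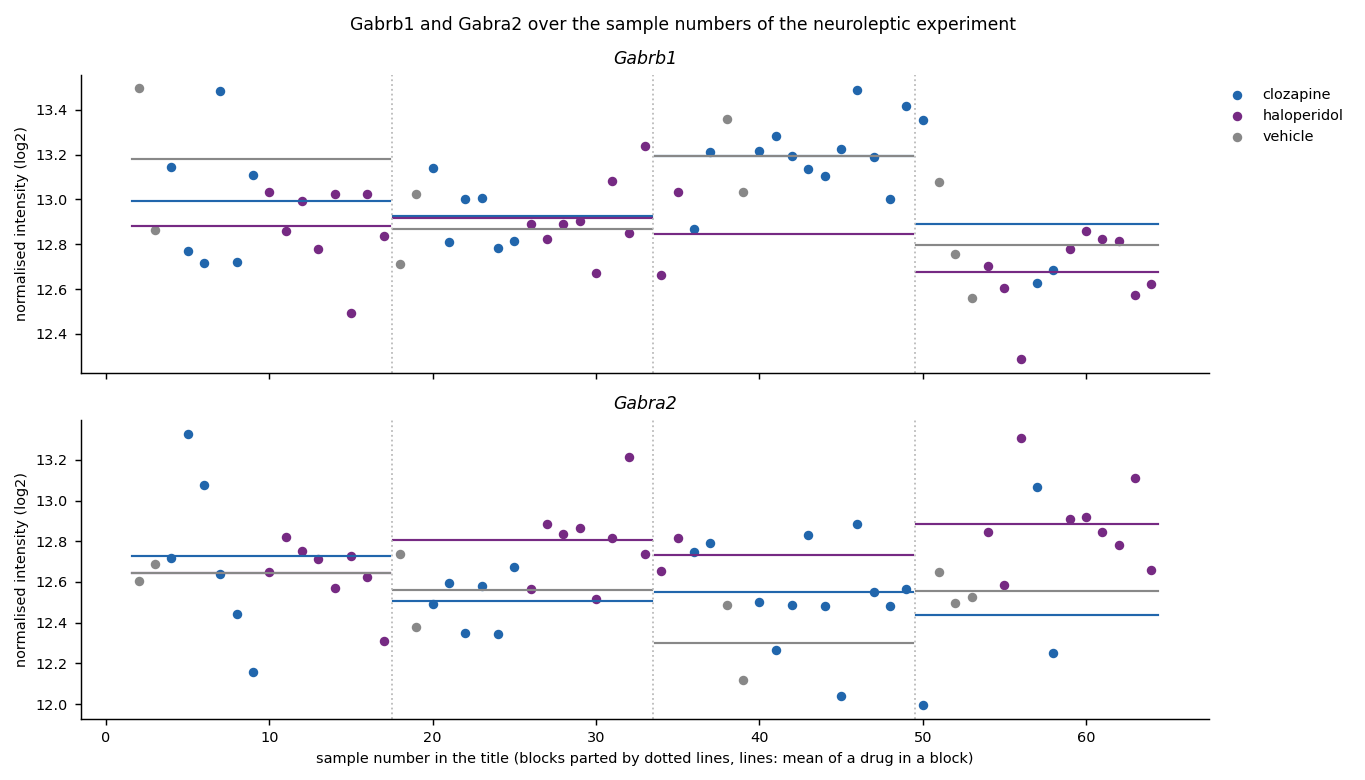
Normalised intensity (log2) of Gabrb1 and Gabra2 on each neuroleptic array against the sample number in its title; dotted lines part the 4 blocks and horizontal lines give the mean of each drug in a block. Clozapine means lie above haloperidol means in each block for Gabrb1, by 0.0081 to 0.35, and below them in 3 of 4 blocks for Gabra2.

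As measured beside these results, the 3′ to 5′ log2 ratio of the beta-actin control, a sign of RNA length, averaged 1.12 ± 0.14 (SD, n = 9) at high haloperidol, 0.94 ± 0.14 (SD, n = 8) at high clozapine and 0.94 ± 0.11 (SD, n = 9) in vehicle. The GAPDH ratio averaged 0.078 ± 0.054, 0.048 ± 0.058 and 0.070 ± 0.049 in the same groups. Of 10 interneuron markers 8 were higher with clozapine than with haloperidol (median 0.024) and 1, Npy, was called (0.15 ± 0.035; limma, adjusted p = 0.0241). With the block as a term Npy was at 0.14 ± 0.037 (limma, adjusted p = 0.248) and not called, and within the 4 blocks it was 0.12, 0.20, 0.078 and 0.10. Of 5 markers of oligodendrocyte precursors 5 were higher (median 0.070) and 0 were called; their summed log2 level ran from 14.43 to 14.86 over the clozapine groups and from 14.45 to 14.69 over the haloperidol groups. The summed log2 level of the interneuron markers ran from 17.05 to 17.30 over the clozapine groups and from 16.97 to 17.30 over the haloperidol groups. Of 5 blood markers 3 were on the array and 2 were tested, both higher with clozapine (median 0.33; Alas2 0.44 ± 0.17 and Hbb 0.21 ± 0.14) and 0 called. Between the high and low level of clozapine they were higher by 1.37 ± 0.29 (Alas2; limma, adjusted p = 0.0689) and 1.03 ± 0.24 (Hbb; adjusted p = 0.212). Their summed log2 level ran from 13.12 to 16.05 at low, 15.17 to 16.36 at medium and 15.24 to 16.57 at high clozapine, from 14.69 to 16.03 over the haloperidol groups and from 15.04 to 15.59 in vehicle. The part of RNA length and of these cells in the Gabrb1 and Gabra2 values was not tested.

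For the other members the 95% confidence intervals between the drugs included 0, the widest from -0.25 to 0.088 for Gabrg1. Clozapine minus haloperidol was -0.0038 ± 0.082 for Gabra3, 0.032 ± 0.047 for Gabra4, -0.11 ± 0.062 for Gabra5, 0.017 ± 0.038 and -0.050 ± 0.066 for the Gabrb2 probe sets and -0.079 ± 0.084 for Gabrg1 (SE). Over the 8 the median was -0.027 with 3 higher and 5 lower, beside 0.012 and 56.1% higher over all probe sets. Clozapine minus vehicle called 0 of 8 members (0% of all probe sets) and 0 had an unadjusted p under 0.05 (3.82% of all). Gabrg1 lay lowest there at -0.16 ± 0.12 and Gabra3 highest at 0.13 ± 0.12. Haloperidol minus vehicle called 0 of 8 (0.0215% of all) and 1, Gabra2, had an unadjusted p under 0.05 (6.77% of all). Gabra3 was at 0.13 ± 0.12 and Gabrg1 at -0.081 ± 0.12.

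At single dose levels limma called 0 of 8 members in each comparison. At low clozapine 0% of all probe sets were called, and 0 members had an unadjusted p under 0.05 against 2.72% of all. At medium clozapine the shares of all probe sets were 0.0215% and 4.05%, with 0 members at the unadjusted level. At high clozapine they were 0.00537% and 3.88%, again with 0 members, and Gabrg1 had its largest difference there, -0.25 ± 0.15, with 6 of 8 arrays below the vehicle mean. At low haloperidol 0% were called and 4.25% had an unadjusted p under 0.05, among them 1 member, Gabra2. At medium haloperidol the shares were 0.00537% and 4.69%, with 0 members. At high haloperidol they were 0.0268% and 7.74%, with 2 of 8 members, Gabra2 and Gabrb1 (-0.23 ± 0.11, 8 of 9 arrays below the vehicle mean). Between the high and low dose level of clozapine 0% were called and 3.23% had an unadjusted p under 0.05, with 1 member, Gabrb1. Between those of haloperidol the shares were 0% and 5.52%, with 0 members. Over all blocks together, Gabra5 differed from vehicle by -0.16 ± 0.11 at high clozapine to 0.021 ± 0.11 at low haloperidol. Within the 4 blocks, each with 2 or 3 vehicle arrays, its clozapine minus vehicle was 0.096, -0.62, 0.12 and 0.18. Haloperidol minus vehicle was 0.12, -0.40, 0.0078 and 0.14, so the second block stood apart in both. Clozapine minus haloperidol was -0.020, -0.22, 0.12 and 0.036 for Gabra5 within blocks.

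**Figure D4:**
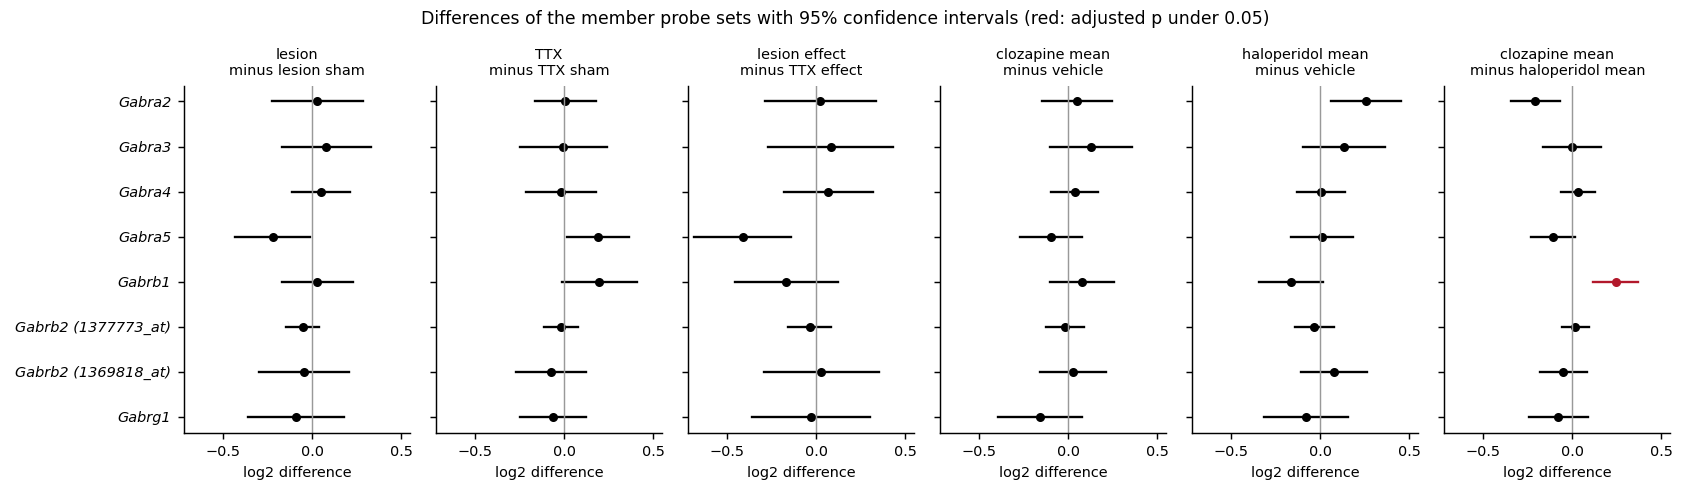
Log2 difference (points) with its 95% confidence interval (lines) for the 8 member probe sets in 6 comparisons; red marks an adjusted p under 0.05. Gabrb1 between clozapine and haloperidol (0.24) is the only called difference, and the intervals of Gabra5 lie on opposite sides of 0 after lesion and TTX.

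The position of an array in the order of sample numbers held more of the variance of several members than the treatment did. In the neuroleptic experiment the blocks held 68.6% of the variance of Gabrb2 (1377773_at), 47.8% of Gabrg1 and 36.1% of Gabra5, while the 7 groups held 3.02%, 9.40% and 6.88%. For Gabra2 it was the other way round, with 6.13% in blocks and 19.9% in groups. In the TTX experiment 50.7% of the variance of Gabrg1 lay between the 2 blocks and 2.48% between TTX and sham. In the lesion experiment the blocks held 41.8% of Gabrb2 (1377773_at) and 31.8% of Gabra2. The spread between arrays of a group also differed among members: in the neuroleptic experiment the SD within groups was 0.14 for this Gabrb2 probe set and 0.31 for Gabra3 and Gabrg1.

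Pairs of members were compared over arrays, as deviations from group means, in 84 relations (28 pairs in 3 experiments). Each had 100000 permutations, with Benjamini-Hochberg adjustment over the 84, and 7 had an adjusted p under 0.05. Pairs of other probe sets were not computed, so no share over all pairs stands beside that count. The permutations shuffled arrays over a whole experiment and not within blocks, so a shift shared within a block counts as a relation. No p-value was computed within blocks. In the 20 TTX arrays Gabra4 went with Gabra3 (Pearson r = 0.73, Spearman rho = 0.65; permutation p = 0.00019 and 0.00216, adjusted 0.00798 and 0.0302). It also went with Gabrb2 (1377773_at; r = 0.705, rho = 0.68; permutation p = 0.00037 and 0.00126, adjusted 0.0104 and 0.0265). Both changed little without the 2 arrays farthest from the median (0.705 and 0.699) and within blocks (0.704 and 0.684). Here and below that median was of the pair's earlier member in the opening list (for the Gabrb2 pair, 1377773_at). Arrays far out only in the other member stayed in. In the 22 lesion arrays Gabra4 and Gabrb1, neighbours on chromosome 14, ran against each other (r = -0.59, rho = -0.66; permutation p = 0.00408 and 0.00112, adjusted 0.049 and 0.0265). This r was -0.675 without the 2 farthest arrays and -0.62 within blocks; in the TTX and neuroleptic arrays it was 0.146 and 0.175.

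Also in the lesion arrays, Gabrg1 ran against Gabra2 (r = -0.66, rho = -0.48; permutation p = 0.00126 and 0.0245, adjusted 0.0195 and 0.137) and against the second Gabrb2 probe set (r = -0.66, rho = -0.66; permutation p = 0.00139 and 0.00097, adjusted 0.0195 and 0.0265). Without the 2 farthest arrays r was -0.385 (permutation p = 0.0952) and -0.366 (permutation p = 0.113), so both were weaker without those arrays. For the Gabrb2 probe set the rank correlation over all arrays was as strong as r. Within blocks r was -0.605 and -0.602. Lesion replicate 7 had the lowest Gabra2 (11.74), the lowest value of that Gabrb2 probe set (11.26) and the highest Gabrg1 (12.36) of the experiment. In the 63 neuroleptic arrays Gabra5 went with Gabrg1 (r = 0.57, rho = 0.55; permutation p = 1e-05, the smallest these permutations can give, and 2e-05, adjusted 0.00084 and 0.00168), at 0.51 without the 2 farthest arrays but 0.29 within blocks. Gabra3 went with Gabrb2 (1377773_at) at r = 0.40 (rho = 0.39; permutation p = 0.00119 and 0.00169, adjusted 0.0195 and 0.0284), at 0.401 without the 2 farthest arrays and at 0.075 within blocks. Both neuroleptic pairs were thus weaker within blocks, and their p-values do not account for the blocks.

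**Figure D5:**
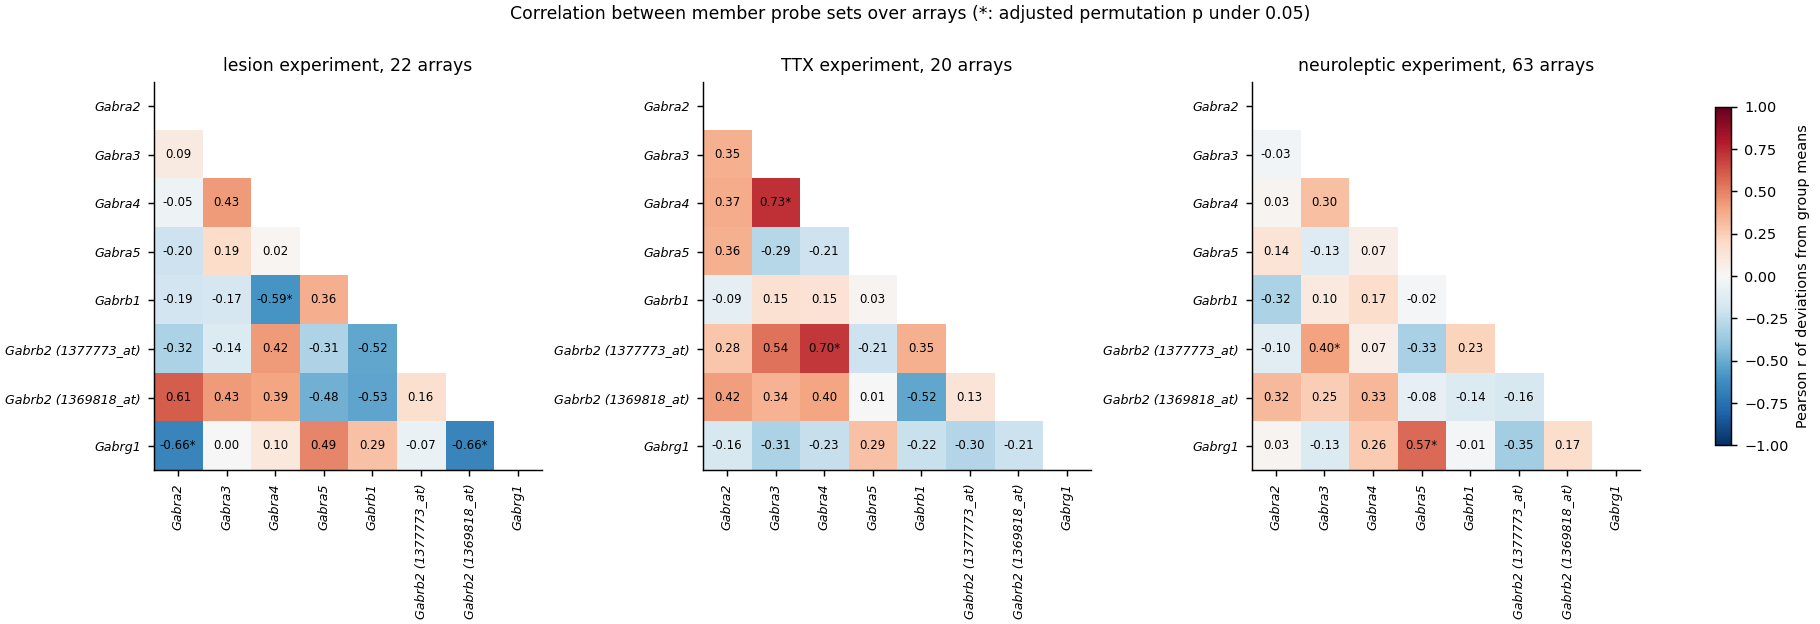
Pearson r between member probe sets over arrays, as deviations from group means, in each experiment (colour and printed value; stars mark an adjusted permutation p under 0.05). The permutations did not account for the blocks of sample numbers. Gabra4 goes with Gabra3 (0.73) and Gabrb2 (0.705) in the TTX arrays, and no pair is starred in more than 1 experiment.

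The 2 probe sets of Gabrb2 had no relation that passed. Pearson's r was 0.16 in the lesion arrays (Spearman rho = 0.085; permutation p = 0.493 and 0.709, adjusted 0.66 and 0.851), 0.129 in the TTX arrays (rho = 0.053; permutation p = 0.588 and 0.825, adjusted 0.708 and 0.884) and -0.158 in the neuroleptic arrays (rho = -0.255; permutation p = 0.219 and 0.0438, adjusted 0.41 and 0.229). Without the 2 farthest arrays r was 0.21, 0.005 and -0.205, and within blocks 0.656, 0.099 and 0.031. No source used here says which part of the transcript each one reads.

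As a description with no test, the genes whose values followed each member most closely were ranked among 9995 candidates by the mean of 3 Pearson correlations of deviations from group means (22, 20 and 63 arrays). All points share arrays, sample blocks and normalisation. Gabra5 was followed by Synpr, a synaptic vesicle protein of interneurons and other neurons (0.74, and 0.65 and again first within blocks), Gng10, a G protein gamma subunit (0.70), and Meis2, a homeobox factor (0.68). Gabrg1 was followed by Tmx3 (0.79), a thioredoxin-related protein, Nadk2 (0.77), which makes mitochondrial NADP, and Scoc (0.76). For Gabra2 they were Eprs1 (0.60), Id2 (0.59) and Nipbl (0.57), for Gabra3 Arih1 (0.63), Cyria (0.62) and Cntn1 (0.60), and for Gabra4 Mtpn (0.60), Cntn1 (0.56) and Vps50 (0.56). Cntn1, a cell adhesion molecule of axons, thus appeared for 2 members, but within blocks at rank 8 for Gabra3 and rank 24 for Gabra4. Gabrb1 had the loosest followers, Pals1 (0.50), Rap1gds1 (0.48) and Poldip3 (0.45). Within blocks Eprs1 and Pals1 stood again at rank 1 and Tmx3 at rank 2, while Meis2 stood at 17, Nadk2 at 14 and Poldip3 at 13. The other followers named up to here had ranks from 3 (Id2 and Arih1) to 9 (Mtpn) within blocks. For Gabrb2 the followers Fndc4 (0.61), Adprh (0.58) and Gnas (0.57) did not hold within blocks (ranks 465, 653 and 157). There Npy1r (0.57), Kcnj3, a subunit of G protein-gated potassium channels (0.57), and Gabra4 (0.56) came first.

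Other genes of the GABA-A pathway were counted from lists. Of 9 other subunits analysed 1, Gabrd, passed the filter. Gabrd, the delta subunit of extrasynaptic receptors, differed by -0.17 ± 0.11 after the lesion and -0.0056 ± 0.051 with TTX (difference between the effects -0.16 ± 0.13), by -0.062 ± 0.052 with clozapine and -0.048 ± 0.052 with haloperidol (SE), and was not called. The other 8 were at or below percentile 32.3 of mean intensity.

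Of 18 genes for anchoring and trafficking of the receptor, 15 were tested. In the lesion, TTX, lesion minus TTX, clozapine and haloperidol comparisons 0 were called, with 1, 2, 3, 0 and 2 at an unadjusted p under 0.05. The smallest p values belonged to Trak1, a motor adaptor, after the lesion (-0.094 ± 0.045), to Hap1, which returns internalised receptors to the surface, with TTX (0.30 ± 0.11) and to the scaffold protein gephyrin, Gphn, for the difference between the effects (0.12 ± 0.052). They belonged to the auxiliary protein Shisa7 with clozapine (0.14 ± 0.10) and to Trak2, a motor adaptor that binds a beta subunit, with haloperidol (0.31 ± 0.11). Between the drugs 1 of 15 was called: Trak2 was lower with clozapine than with haloperidol (-0.30 ± 0.078; limma, adjusted p = 0.0428), and is named for that comparison after its value was seen. With the block as a term it was -0.24 ± 0.083 (adjusted p = 0.369), and the call was lost also without a filter (adjusted p = 0.0778) and without the arrays of low mean correlation (adjusted p = 0.0797). Within the 4 blocks it was 0.060, -0.43, -0.44 and -0.21. Of the 15 genes 5 had an unadjusted p under 0.05 between the drugs, where 15.2% of all probe sets did. The list's median there was -0.032 with 6 higher and 9 lower, beside 0.012 and 56.1% higher over all probe sets.

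Of 12 genes for the chloride gradient and GABA-B receptors 10 were tested and 0 were called in the same 6 comparisons, with 3 of 10 at an unadjusted p under 0.05 between the drugs (15.2% of all probe sets) and 0 in the other 5. The smallest p values were those of the chloride channel Clcn2 after the lesion (-0.16 ± 0.081) and for the difference between the effects (-0.20 ± 0.11), of the chloride importer Slc12a2 with TTX (-0.14 ± 0.082) and of Stk39, a kinase that acts on chloride cotransporters, with clozapine (-0.070 ± 0.040) and haloperidol (-0.069 ± 0.040). Of 10 genes for GABA synthesis, uptake and breakdown, 9 were tested in the lesion and TTX experiments and 8 in the neuroleptic one, and 0 were called, with 1 at an unadjusted p under 0.05 after the lesion and 0 in the others. That one was the vesicular GABA transporter Slc32a1 (0.16 ± 0.072), which also had the smallest p with TTX (0.11 ± 0.066). Gad2, a GABA-synthesising enzyme, had it for the difference between the effects (0.24 ± 0.17), the glutamine transporter Slc38a1 with clozapine (-0.048 ± 0.045) and Aldh5a1, which breaks down GABA, with haloperidol (0.11 ± 0.067). With TTX 8 of 9 of these genes were lower (median -0.046).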

How the data were processed

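The deposited table held the authors' intensity values, linear, for every probe set on every array. No source used here names the software, background correction or summarisation behind them. The authors' values had a common scale, since the mean without the 2% of values at either end was 2500.6 to 2500.8 on all arrays. Here each experiment was quantile-normalised by itself from the deposited intensity, values under 32 (6.04%) were set to 32, log2 was taken, and 57 controls were removed. In each fit the 60% of probe sets with the highest mean were tested with limma 3.58.1 (lmFit, eBayes; R 4.3.3), using 1 mean per group, no covariate and Benjamini-Hochberg adjustment. The 7 neuroleptic groups shared 1 spread, and a drug mean is the mean of its 3 dose levels. Correlations used scipy 1.17.1 and numpy 2.4.6. The fit was tested on simulated data. The platform annotation gave 1 symbol for 20826 probe sets, several for 436 and none for 9780. Promoters and gene order came from RefSeq (GRCr8).

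The members and lists were chosen with earlier results of these data known. Named genes were the members, the called gene or else the 1 of smallest p per pathway list in 5 comparisons, and the 3 closest followers of each member. Alternatives were no quantile normalisation, another floor, no filter, the block, array weights, arrays left out and trended robust eBayes. The alternatives for Npy and Trak2 were added after their values had been seen.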

Additional observations from a re-analysis of the deposited data

Results flagged for a closer look

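Gabrb1 differed between the drugs: clozapine minus haloperidol was 0.24 on the log2 scale (limma, adjusted p = 0.0397). In 5 of 72 sets of values, each a member probe set in a group of at most 10 arrays, 1 array lay far from the others; chance alone gives about 1 in 20. Gabra2 was at 13.31 in high haloperidol replicate 7, above the next array at 12.92, and at 13.11 in medium haloperidol replicate 8, above 12.82. The latter is an array of low mean correlation. Gabra3 was at 10.67 in medium clozapine replicate 8, below 11.14. Gabra4 was at 12.77 in medium clozapine replicate 7, above 12.52. The second Gabrb2 probe set (1369818_at) was at 11.56 in medium haloperidol replicate 4, below 12.09.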

How the results depend on the processing

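No paired analysis was possible because the labels give no replicate numbers. Between clozapine and haloperidol 1 member was called; the number was 0 with all probe sets, 0 with the block as a term, 0 without arrays of low mean correlation and 2 (Gabrb1 and Gabra2) with array weights. It was 1 with the other 3 alternatives, and from 0 to 2 over single arrays left out. The other 13 comparisons kept 0 calls under all 7 alternatives. With all probe sets the adjusted p of Gabrb1 was 0.0721 at the same difference; there more probe sets were tested. Single arrays left out, chosen after seeing the data, moved Gabra2 between the drugs from -0.25 to -0.18. Of 784 member differences under the alternatives 34 changed sign, all of them at most 0.044 in size at first. Under the alternative that changed their sign, all had an unadjusted p (limma) of 0.168 or more. With array weights they were Gabrb1 -0.039 (lesion), Gabrb2 (second probe set) 0.032 (lesion), Gabra3 0.015 (TTX), Gabrb2 0.0030 (clozapine), Gabra4 -4.3e-05 (haloperidol), Gabra5 -0.013 (haloperidol), Gabrb2 9.95e-05 (haloperidol), Gabra2 -0.013 (clozapine high), Gabrb2 0.014 (clozapine high), Gabrb2 0.045 (haloperidol low), Gabra5 -0.012 (haloperidol medium), Gabra3 -0.039 (haloperidol high), Gabrb2 (second probe set) 0.0049 (clozapine high minus low) and Gabrb2 (second probe set) -0.023 (haloperidol high minus low). With the block as a term they were Gabrb2 (second probe set) -0.0062 (clozapine), Gabra4 -0.020 (clozapine minus haloperidol), Gabrb2 -0.011 (clozapine minus haloperidol), Gabrb2 -0.057 (clozapine medium), Gabra3 -0.0065 (clozapine high), Gabra4 0.020 (haloperidol low), Gabrb2 (second probe set) 0.0024 (clozapine high minus low), Gabrb2 0.051 (haloperidol high minus low) and Gabrb2 (second probe set) -0.026 (haloperidol high minus low). With values as deposited they were Gabrb2 0.000893 (clozapine), Gabra5 -0.0055 (haloperidol), Gabrb2 0.0030 (clozapine high), Gabra5 -0.0029 (haloperidol medium) and Gabrb2 (second probe set) -0.0037 (haloperidol high minus low). Without arrays of low mean correlation they were Gabrb1 -0.019 (lesion), Gabrb2 (second probe set) 0.017 (lesion), Gabra5 -0.016 (haloperidol), Gabrb2 -0.0040 (clozapine minus haloperidol), Gabrg1 -0.010 (haloperidol medium) and Gabrb2 (second probe set) -0.025 (haloperidol high minus low). The cause was not tested. No detection calls were used, so signal near background was not marked; all member probe sets lay among the 60% of highest mean.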
